A study of Mus musculus with 9 samples.

Results

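Slco1a1, Slco1a4, Slco1b2, Slco2a1, Slco2b1, Slc22a7 and Slc47a1 encode membrane transporters for organic anions and cations, and their RNA was followed in mouse livers that lack Atg7, a gene needed to form autophagosomes. They were chosen by symbol, with earlier results of these data known, as 7 of the 24411 genes in the table of counts. All 7 were among the 11199 genes with enough counts to be tested. The study asked what changes in the liver when autophagy is lost in hepatocytes, and what depends on the phosphorylation of p62, a receptor that gathers cargo and KEAP1 into p62 bodies. Poly(A) RNA of 9 livers from C57BL/6 mice aged 3 months was sequenced, 3 livers in each of 3 groups. All mice carried Atg7 flox/flox. The cont. group had no Cre, the Atg7-KO group had Alb-Cre, and the Atg7-KO;p62-S351A group (S351A from here on) had Alb-Cre and a p62 allele on both copies in which a serine is replaced by alanine. Alb-Cre is driven by the albumin promoter, and the study describes the loss of Atg7 as specific to hepatocytes. No group with the p62 mutation and intact autophagy was analysed here, so the S351A allele was seen only in livers without Atg7.

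Hepatocytes take up bile acids, bilirubin, steroid conjugates and many drugs from sinusoidal blood through carriers of the Slco family (organic anion transporting polypeptides) and of the Slc22 family (organic anion and cation transporters). What enters is metabolised and then leaves into bile or back into blood through ABC pumps and exchangers such as MATE1, the product of Slc47a1. Several of these genes differ between the sexes in mouse liver, Slco1a1 being known as a gene of the male and Slco1a4 as a gene of the female liver, a difference set by the pattern of growth hormone secretion. Although Slc47a1 is grouped here with uptake carriers, its product is known as an exporter of organic cations in exchange for protons.

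Slco1b2, Slco1a4 and Slco1a1 are neighbours on chromosome 6 of mm10, at 141629518 to 141686646 (+ strand), 141805440 to 141856199 (- strand) and 141907282 to 141946962 (- strand). Slco2b1 lies on chromosome 7 (99657804 to 99711340, - strand), Slco2a1 on chromosome 9 (102988712 to 103096002, + strand), Slc47a1 on chromosome 11 (61343401 to 61378345, - strand) and Slc22a7 on chromosome 17 (46432183 to 46438457, - strand). All are protein-coding genes in GENCODE release M21. The promoters of the 3 neighbours are shown because the genes sit side by side and yet differ in how their RNA varied among the livers. Each window runs from 250 bases before to 50 bases after the start of transcription and is printed 5′ to 3′ on the strand of the gene, from RefSeq (GRCm38.p6), with the letters of any motif found in capitals.
Slco1b2, chr6:141629268-141629567, + strand: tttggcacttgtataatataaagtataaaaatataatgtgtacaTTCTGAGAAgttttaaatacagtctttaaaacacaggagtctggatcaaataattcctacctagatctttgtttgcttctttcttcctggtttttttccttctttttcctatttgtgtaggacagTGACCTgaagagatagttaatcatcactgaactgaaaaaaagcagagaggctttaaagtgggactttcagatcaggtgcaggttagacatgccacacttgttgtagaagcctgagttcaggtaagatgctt
Slco1a4, chr6:141856171-141856470, - strand: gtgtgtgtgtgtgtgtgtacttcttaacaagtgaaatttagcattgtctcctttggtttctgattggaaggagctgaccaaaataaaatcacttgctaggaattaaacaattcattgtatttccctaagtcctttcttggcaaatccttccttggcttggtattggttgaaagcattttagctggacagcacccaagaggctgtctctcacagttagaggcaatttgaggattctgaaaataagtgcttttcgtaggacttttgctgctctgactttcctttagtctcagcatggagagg
Slco1a1, chr6:141946913-141947212, - strand: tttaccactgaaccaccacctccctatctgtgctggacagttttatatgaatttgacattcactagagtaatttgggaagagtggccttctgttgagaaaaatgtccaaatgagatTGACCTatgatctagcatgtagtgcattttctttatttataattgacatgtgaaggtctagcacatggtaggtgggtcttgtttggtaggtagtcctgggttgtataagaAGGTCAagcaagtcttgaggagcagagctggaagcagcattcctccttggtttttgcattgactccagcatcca
On both strands, 3 motifs were searched. The letters for HNF4 and other nuclear receptors were AGGTCA, and those for STAT5, which acts downstream of growth hormone, were TTCNNNGAA. For the antioxidant response element, which NRF2 binds, the core TGACNNNGC was used. The Slco1b2 window held the nuclear receptor and STAT5 motifs once each, and its nuclear receptor match began 81 bases before the start. The Slco1a1 window held 2 matches to the nuclear receptor motif, and the Slco1a4 window held none of the 3 motifs. Over the windows of all 32851 promoters in the table, 16.3% held the nuclear receptor motif, 8.30% the STAT5 motif and 12.4% the antioxidant response motif. Such matches are descriptions of the letters, and binding was not measured. Windows of Slco2a1 and Slco2b1 were read in the same way, while Slc22a7 and Slc47a1 had no entry.

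In the libraries, Atg7 itself was lower with Cre than without, with log2 fold changes of -0.74 in Atg7-KO (adjusted p 0.00792) and -1.07 in S351A (adjusted p 0.00303) by edgeR's quasi-likelihood test. Scaled by total library size, neither change of Atg7 was called. Library totals ran from 713835 to 15426600 counts, and each S351A library was smaller than any library of the other groups, so that depth and the p62 mutation cannot be told apart. Sex is not in the labels. By Xist and Y-linked genes, cont. held 2 male livers and 1 female liver, and Atg7-KO and S351A 1 male and 2 female livers each. The hepatocyte markers were well above background in every library, with 4 of 6 called lower in Atg7-KO and 4 of 6 in S351A. Their summed level was 47593 to 102975 CPM (counts relative to the library total, scaled by TMM) in the control livers, 34188 to 40812 CPM in Atg7-KO livers and 32316 to 44879 CPM in S351A livers. Ductular markers were called higher in both groups for 5 of 5 genes tested, macrophage markers for 4 of 6 and stellate and matrix markers for 5 of 6. Over all genes tested, 18.1% were called lower and 20% higher in Atg7-KO, and 13.1% and 15.7% in S351A. The part of these markers in the results below was not tested. In RNA from whole liver, fewer cells of a type and less RNA per cell cannot be told apart.

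Most of these transporters were lower in livers without Atg7. In Atg7-KO against cont., 5 of the 7 were called lower, at an adjusted p under 0.05 and a fold change above 1.5, and 1 was called higher. Over all genes tested, 18.1% were called lower and 20% higher in the same comparison. These background shares depend on the scaling. With total library size, 801 genes were called lower and 4314 higher in Atg7-KO, in place of 2024 and 2236, and 506 lower and 3507 higher in S351A, in place of 1467 and 1753. The median log2 fold change of the 7 was -2.05, beside -0.032 for all genes tested. In S351A against cont., 4 of the 7 were called lower and 0 higher, against 13.1% and 15.7% of all genes. The median was -1.37 beside -0.028. In S351A against Atg7-KO, edgeR called 0 of the 7 lower and 0 higher, against 0.00893% and 0% of all genes, and DESeq2 and limma-voom also called 0. In that comparison 3 of the 7 had an unadjusted p under 0.05, as had 6.46% of all genes tested, and over the alternatives the count ran from 0, without Atg7-KO replicate 2 or without replicate 3, through 1 with limma-voom or without S351A replicate 3, to 6 with sex as a covariate. The comparisons share libraries, so their values stand side by side and do not support each other. Together the 7 genes held 2114 to 2504 CPM in the cont. livers, 512 to 620 CPM in Atg7-KO livers and 660 to 1062 CPM in S351A livers. No called change of a member turned with any of the other 3 scalings that were tried.

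**Figure D1:**
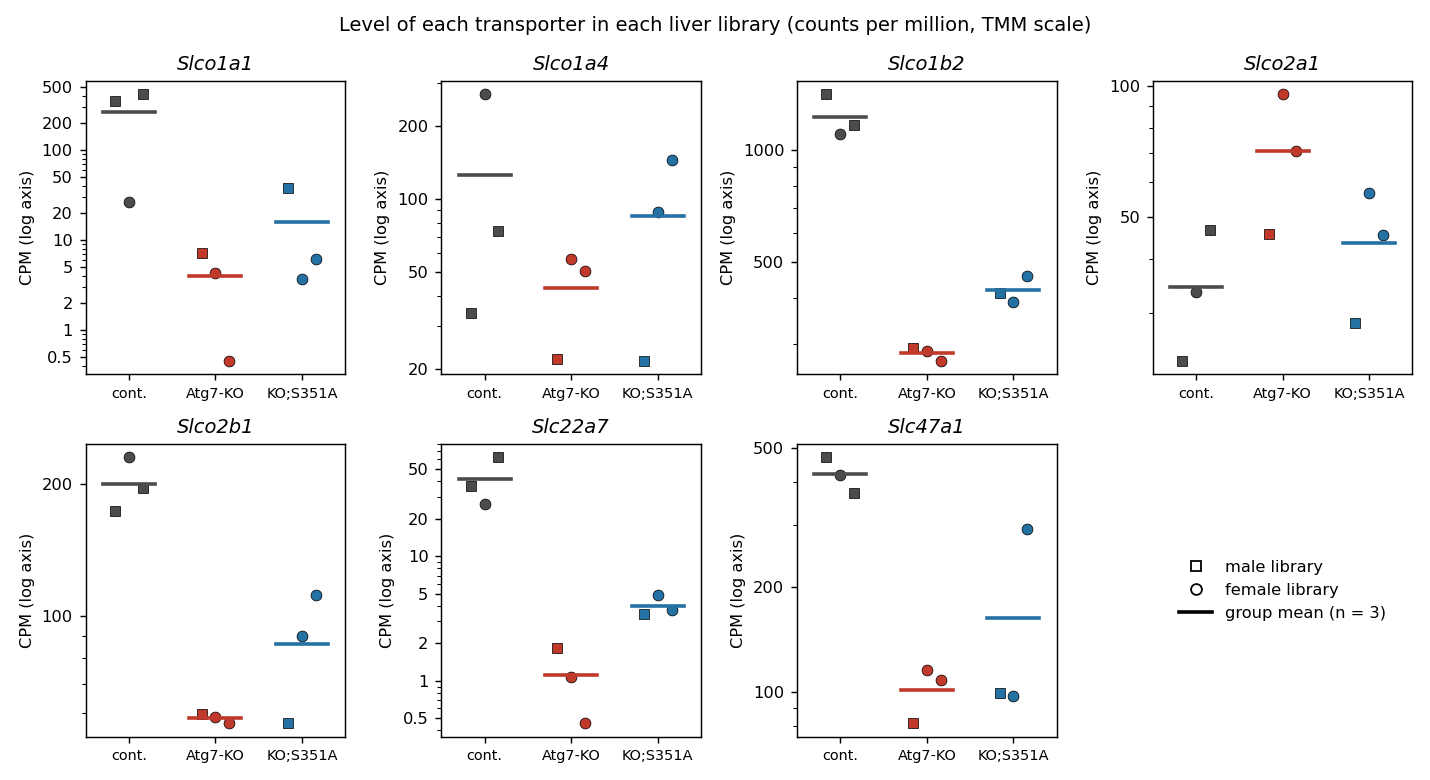
Level of each of the 7 transporters (CPM on the TMM scale, log axis) in each library, with squares for male and circles for female livers and bars for group means (n = 3). Slco1b2, Slco2b1, Slc22a7 and Slc47a1 sat lower in all 6 livers with Cre than in all 3 cont. livers, while Slco1a1 and Slco1a4 spread within each group by sex.

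Slco1b2 encodes the main liver carrier of its family, which takes up bile acids, bilirubin conjugates and statins and is the mouse counterpart of human OATP1B1 and OATP1B3. Its level was 1414, 1108 and 1168 CPM in cont. replicates 1 to 3, 294 (replicate 1), 288 (replicate 2) and 271 (replicate 3) CPM in Atg7-KO, and 413, 389.6 and 458 CPM in S351A. The groups did not overlap in any pair, and the replicates lay close together. The fall in Atg7-KO was 4.33-fold (log2 fold change -2.11, SE 0.22, adjusted p 1.17e-05 by edgeR) and that in S351A was 2.93-fold (log2 fold change -1.55, SE 0.21, adjusted p 0.000221). Between S351A and Atg7-KO the log2 difference was 0.56 (SE 0.21, 95% interval 0.11 to 1.02), with an unadjusted p of 0.0187 and an adjusted p of 0.692 in edgeR. Leaving out any 1 library kept the change in Atg7-KO between -2.19 and -2.02 and that in S351A between -1.63 and -1.46.

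Slco2b1, which carries steroid sulfates and other anions and is found in many tissues, went the same way. Cont. livers held 174, 231 and 196 CPM, Atg7-KO livers 59.7, 58.8 and 56.8 CPM, and S351A livers 57.0, 90.0 and 111.5 CPM. The lowest cont. liver was above every liver with Cre, and the 3 Atg7-KO livers were within 3 CPM of each other. Slco2b1 fell 3.43-fold in Atg7-KO (log2 fold change -1.78, SE 0.24, edgeR adjusted p 9.99e-05) and 2.33-fold in S351A (-1.22, SE 0.25, adjusted p 0.00271). The difference of S351A from Atg7-KO was 0.56 on the log2 scale (unadjusted p 0.0418, adjusted p 0.762), and S351A replicate 1 was within the range of the Atg7-KO livers. Exons of Slco2b1 share 471 bases with Gm15635 and 78 bases with Gm34280 on the opposite strand, and since the library kit does not mark strand, reads there cannot be told apart.

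Slc22a7 encodes OAT2, a sinusoidal carrier of organic anions. It showed the largest fall among members whose libraries did not overlap in either comparison with cont. Cont. livers held 36.6, 26.2 and 62.7 CPM, Atg7-KO livers 1.84, 1.07 and 0.454 CPM, and S351A livers 3.42, 4.93 and 3.68 CPM. These rest on 58, 75 and 705 counts in cont., on 8, 3 and 1 in Atg7-KO and on 3, 4 and 3 in S351A. At this depth 3 counts stand for 0.691 to 1.36 CPM in Atg7-KO libraries and for 3.42 to 3.70 CPM in S351A libraries, so the S351A values and those of Atg7-KO replicates 2 and 3 sit near or below the floor. By edgeR the log2 fold change was -5.05 in Atg7-KO (SE 0.44, adjusted p 2.95e-06) and -3.41 in S351A (SE 0.47, adjusted p 0.00022016). The Atg7-KO value was -6.36 after thinning all libraries to the smallest total and -5.67 without Atg7-KO replicate 1, and it was called in both. From summed counts alone, cont. was 41.6-fold above Atg7-KO (95% interval 23.7 to 80.9, counting error only) and 13.4-fold above S351A (7.24 to 28.0). S351A over Atg7-KO rested on 10 against 12 counts in all, a ratio of 3.11 after scaling (1.20 to 7.86), and edgeR gave an adjusted p of 0.76021 for it.

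Slc47a1 was the second most abundant of the 7 per length. Control livers held 471, 418.5 and 372 CPM, Atg7-KO livers 81.3, 115 and 108 CPM, and S351A livers 99.2, 97.4 and 293 CPM. S351A replicate 3 stood well above the other 2 S351A livers, though still below every cont. liver. The gene fell 4.14-fold in Atg7-KO (log2 fold change -2.05, SE 0.37, edgeR adjusted p 0.00087972) and 2.58-fold in S351A (-1.37, SE 0.37, adjusted p 0.0147). The S351A call was lost with total library size as the scaling (-0.88, adjusted p 0.0947), with a library size that leaves out its 20 top genes (-1.03, 0.0516), in a fit of the 6 libraries alone (-1.29, 0.0549), and without S351A replicate 1 (-1.12, 0.0643) or replicate 2 (-1.12, 0.0704), and over all alternatives its adjusted p ranged from 0.000140 to 0.0947. Without S351A replicate 3 the fall was larger, at -2.11, and the difference from Atg7-KO went from 0.68 (adjusted p 0.840) to -0.052.

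**Figure D2:**
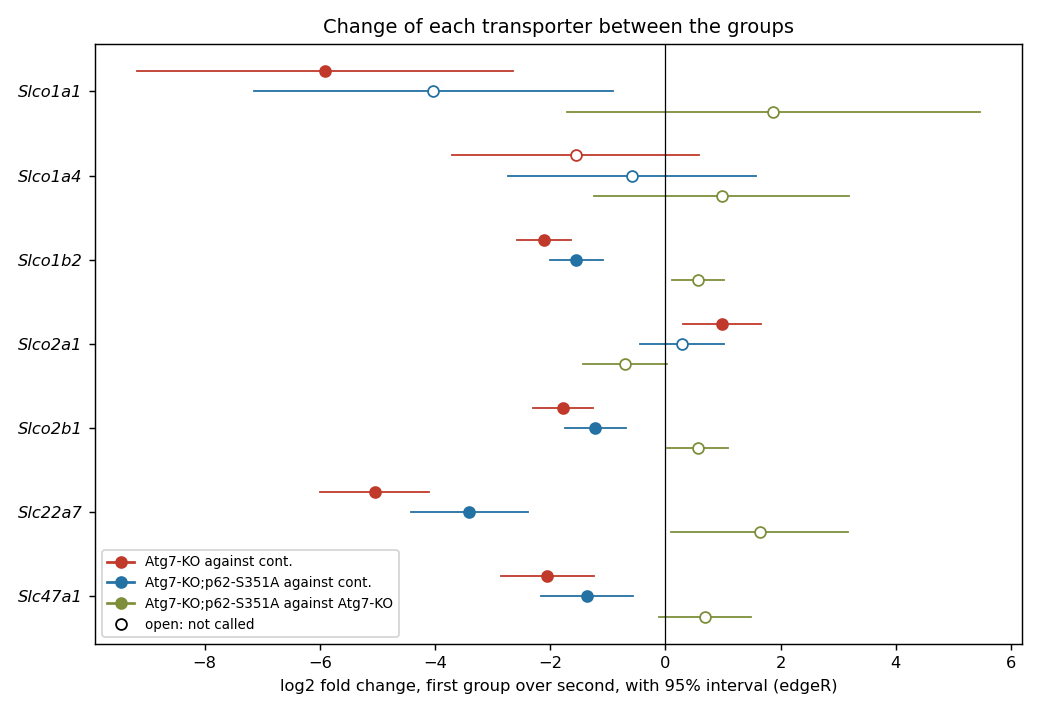
Log2 fold change of each transporter in the 3 comparisons with 95% intervals from edgeR (filled points were called, open points were not). Slco1a1, at -5.91, and Slc22a7, at -5.05, lie farthest below 0 in Atg7-KO, and the interval of Slco1a1 is the widest of the 7 there.

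Slco1a1 carries bile acids and steroid conjugates into male hepatocytes. Cont. livers held 350.5 (male), 26.6 (female) and 414 (male) CPM. In Atg7-KO the male liver held 7.14 CPM and the female livers 4.28 and 0.454 CPM, and in S351A the male liver held 37.6 CPM and the female livers 3.70 and 6.13 CPM. Within each group the male livers were the highest, and the S351A male liver was above the cont. female liver. Across the groups Slco1a1 was called lower in Atg7-KO (log2 fold change -5.91, SE 1.37, edgeR adjusted p 0.0141) and not in S351A (-4.03, SE 1.30, adjusted p 0.0598). Because cont. held more male livers than the other groups, sex was added to the model as a covariate. The change was then -4.86 in Atg7-KO, smaller than without the covariate, and was called in both comparisons (-3.10, adjusted p 0.00140, in S351A).

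A further edgeR fit with a term for each group and sex, added after the data were seen, compared livers of 1 sex. Each comparison with cont. then has an arm of 1 liver, so the values are given as a description, with no test. Among females (2 livers against 1) the log2 fold change of Slco1a1 was -3.37 in Atg7-KO and -2.42 in S351A, and among males (1 against 2) it was -5.74 and -3.34. The Atg7-KO call in the fit without sex was lost without Atg7-KO replicate 2 (-5.92, adjusted p 0.0608) or replicate 3 (-5.51, 0.0507). The S351A change was called without cont. replicate 2, the female liver (-4.58, 0.00359), with DESeq2 (-4.04, 0.00840) and after thinning all libraries to the smallest total (-4.07, 0.0461). Over the libraries left out, the change ran from -6.69 (without Atg7-KO replicate 1) to -5.37 in Atg7-KO and from -5.75 (without S351A replicate 1, the male liver) to -3.52 in S351A.

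Slco1a4 encodes a carrier of bile acids and cardiac glycosides. It ran opposite to Slco1a1 with respect to sex. Control livers held 34.1 (male), 269.9 (female) and 73.8 (male) CPM. Among Atg7-KO livers the values were 22.1 (male), 57.0 and 50.9 (both female) CPM, and among S351A livers 21.7 (male), 88.8 and 145 (both female) CPM. In every group each female liver was above each male liver, and the 3 groups overlapped. Slco1a4 was not called in Atg7-KO (log2 fold change -1.56, SE 0.91, edgeR adjusted p 0.222) or in S351A (-0.58, SE 0.91, adjusted p 0.686). With sex as a covariate it was called lower in both, at -1.88 (adjusted p 0.0006996) and -1.11 (adjusted p 0.0284). In the fit by sex the Atg7-KO change was -2.32 among females and -1.33 among males, with no test. Without cont. replicate 2, the only cont. female, the change went to -0.40 (adjusted p 0.695) in Atg7-KO and to 0.58 in S351A. Slco1a1 and Slco1a4 also share sequence. Windows of 75 bases, the read length, that occur in other genes made up 1.08% of those of Slco1a1 and 1.03% of those of Slco1a4, and in cont. replicates 1 and 3 their deposited values were fractions (554.82 and 54.18, and 4655.06 and 829.94), so that some reads had been split.

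**Figure D3:**
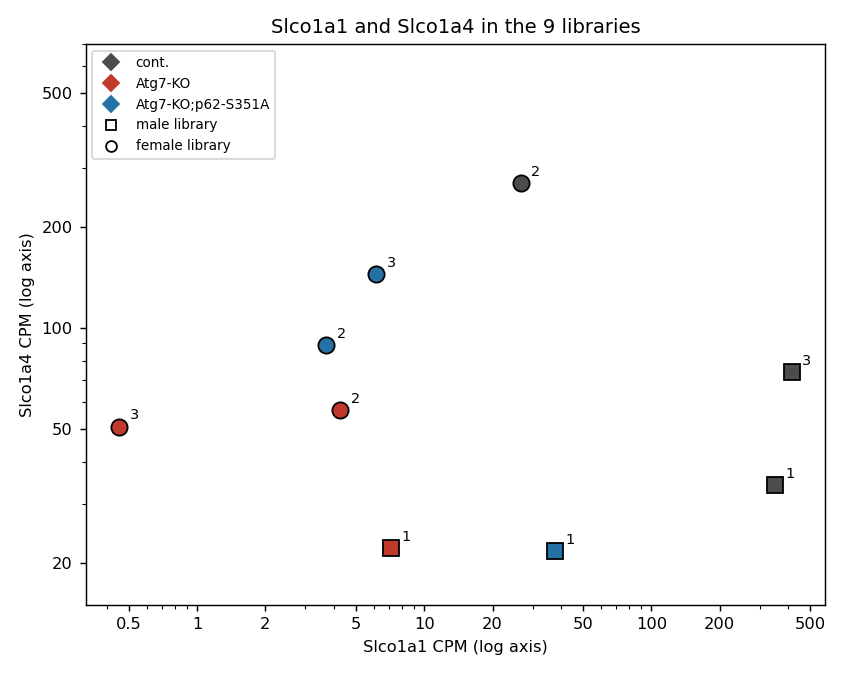
Slco1a1 against Slco1a4 in the 9 libraries (CPM, log axes), with squares for male and circles for female livers and the replicate number beside each point. In each group the male livers lie to the lower right of the female livers.

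Slco2a1 encodes the prostaglandin transporter, known best from endothelial cells. It was the only member called higher. Cont. livers held 23.4, 33.6 and 46.6 CPM, Atg7-KO livers 45.6, 95.5 and 70.9 CPM, and S351A livers 28.5, 56.7 and 45.3 CPM. The cont. and Atg7-KO livers overlapped, since cont. replicate 3 was above Atg7-KO replicate 1. The rise in Atg7-KO was 1.98-fold (log2 fold change 0.99, SE 0.31, edgeR adjusted p 0.0238), and the change in S351A was 0.29 (SE 0.34, adjusted p 0.564). The call did not hold with sex as a covariate (0.75, adjusted p 0.0699), or without any one of cont. replicate 1 (0.78, 0.0790), cont. replicate 2 (0.93, 0.0607), Atg7-KO replicate 2 (0.70, 0.131) or Atg7-KO replicate 3 (0.98, 0.0628), and over all alternatives its adjusted p ranged from 0.000897 to 0.131. Of 10 markers of sinusoidal endothelium, 5 were called lower and 1 higher in Atg7-KO, beside 18.1% and 20% of all genes, and 1 lower and 1 higher in S351A, beside 13.1% and 15.7%. Their summed level was 304 to 499 CPM in the control livers, 352 to 431 CPM in Atg7-KO livers and 353 to 376 CPM in S351A livers. Their part in the rise of Slco2a1 was not tested.

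Levels of different genes were compared per length, as CPM per kb of exon in GENCODE M21. The length was that of all annotated exons merged, 13545 bases for Slco2a1 and 2101 to 6414 bases for the others. Ranks and shares, that of Slco2a1 above all, therefore depend on the annotation. In cont. the order was Slco1b2 (249.6 ± 33.0, SD, n = 3), Slc47a1 (124 ± 14.6), Slco1a1 (49.98 ± 39.4), Slco2b1 (33.6 ± 4.86), Slc22a7 (19.9 ± 8.95), Slco1a4 (19.6 ± 19.7) and Slco2a1 (2.55 ± 0.860). Slco1b2 and Slc47a1 did not overlap with the genes beside them in this order, whereas Slco1a1 and Slco2b1, Slco2b1 and Slc22a7, and Slc22a7 and Slco1a4 did. In Atg7-KO the order was Slco1b2 (57.7 ± 2.44), Slc47a1 (30.04 ± 5.32), Slco2b1 (9.81 ± 0.247), Slco1a4 (6.76 ± 2.91), Slco2a1 (5.22 ± 1.84), Slco1a1 (0.750 ± 0.636) and Slc22a7 (0.534 ± 0.331). Summed over the 7 genes, the cont. livers were at 499.6 ± 48.6, the Atg7-KO livers at 111 ± 8.52 and the S351A livers at 169 ± 50.1.

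Shares of this sum show the makeup of the 7 within a library and do not depend on scaling between libraries. Slco1b2 took 49.9% ± 2.72 (SD, n = 3) of it in control livers, 52.3% ± 5.03 in Atg7-KO livers and 52.3% ± 10.4 in S351A livers, and Slc47a1 25.0% ± 2.87, 27.0% ± 3.13 and 26.5% ± 10.1. Both shares overlapped between all groups. The share of Slc22a7 lay between 2.78% and 5.93% in control livers, between 0.197% and 0.854% in Atg7-KO livers and between 0.771% and 1.63% in S351A livers. That of Slco2a1 lay between 0.316% and 0.684%, 3.28% and 5.89%, and 1.47% and 2.91%, in the same order. Because the sum itself was lower in both groups with Cre, a share also rises when other members fall. The level of Slco2a1 overlapped between cont. and Atg7-KO. For both genes the cont. livers did not overlap with either other group, with an exact permutation p of 0.10 (two-sided), the smallest that 3 against 3 livers can give, and adjusted p of 0.42 over the 21 share comparisons. The Slco2a1 share in S351A was also below that in Atg7-KO without overlap (exact permutation p 0.10). The share of Slco1a1 ran between 1.12% and 15.6% over the control livers and between 0.0784% and 1.32% over the Atg7-KO livers, and these ranges overlapped.

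**Figure D4:**
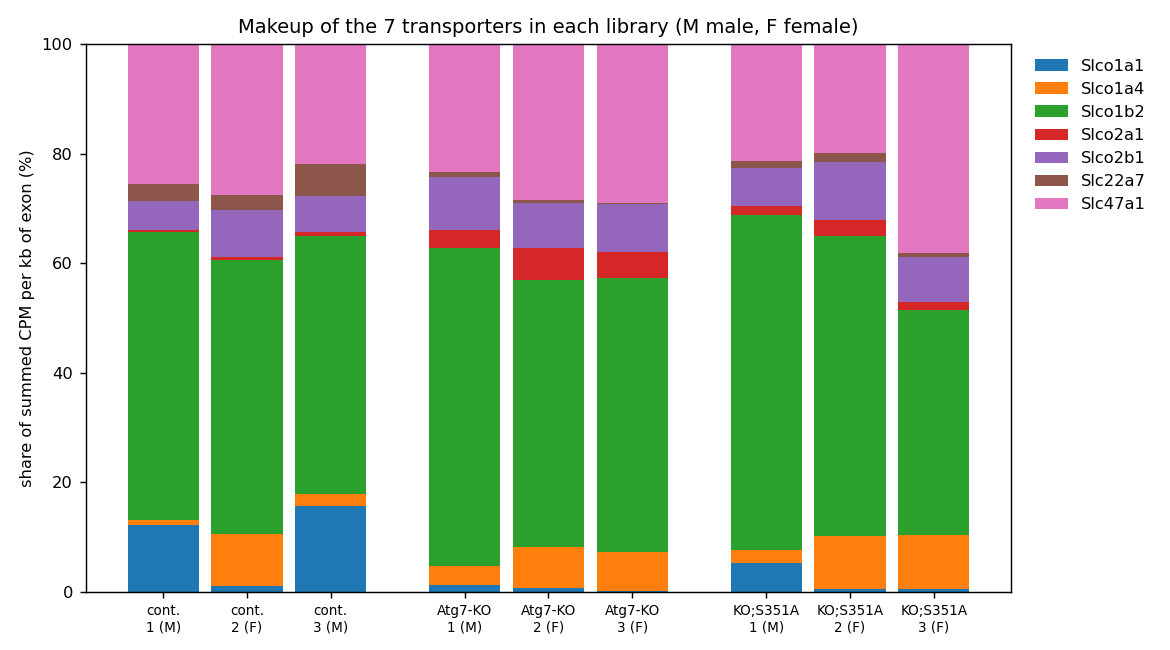
Share of each transporter in the summed level of the 7 genes (CPM per kb of exon, percent) in each library, M for male and F for female. Slco1b2 and Slc47a1 fill most of every bar, and the share of Slco2a1 is 0.316% to 0.684% in cont. and 3.28% to 5.89% in Atg7-KO. The mean sum is 499.6 CPM per kb in cont. and 111 in Atg7-KO, so this share also carries the fall of other members.

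Over the 9 libraries the log2 levels of Slco1b2, Slco2b1, Slc22a7 and Slc47a1 ran together, with Pearson's r from 0.835 (Slc22a7 and Slc47a1) to 0.971 (Slco1b2 and Slc22a7). Slco1a1 had r of 0.892 with Slc22a7, 0.869 with Slco1b2, 0.691 with Slc47a1 and 0.689 with Slco2b1, and of -0.09 with Slco1a4. These values carry the difference between groups and are given as a description. The gene most like Slco1b2 was Acaa1b, a peroxisomal thiolase (r 0.995), with 2127, 474 and 729 CPM as means of cont., Atg7-KO and S351A, followed by Il1rap (0.994) and Ces1e (0.991). Those most like Slco1a1 were Egfr (0.979), Elovl3 (0.977), a male-biased fatty acid elongase, and Tsfm (0.977), and those most like Slco1a4 were Rnase4 (0.962), Sall1 (0.948) and Mfsd2a (0.939). For Slco2b1 they were Tmem25 (0.990) and Agmat (0.988), for Slc22a7 Zfp768 (0.986), Zmym5 (0.986) and Tlcd2 (0.985), for Slc47a1 Chuk (0.984), Zbtb7b (0.983) and Syf2 (0.982), and for Slco2a1 Vdac1 (0.9753) and Snap29 (0.947).

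Among 38 related transporters of the Slco, Slc22, Slc47, Slc10 and Slc51 families, 16 had enough counts to be tested. In Atg7-KO 7 of the 16 were called lower and 3 higher, and the median of their log2 fold changes was -0.85. In S351A 4 were called lower and 3 higher, and the median was -0.30. Of all genes, 18.1% were called lower and 20% higher in Atg7-KO, and 13.1% lower and 15.7% higher in S351A, so that the counts called higher lay near the shares over all genes. In S351A against Atg7-KO edgeR called 0 of the 16, and 1 had an unadjusted p under 0.05, beside 6.46% of all genes. Slc10a1, which encodes NTCP, the sodium-dependent carrier of conjugated bile acids, held 119, 194 and 338 CPM in control livers, 44.7, 53.1 and 66.3 CPM in Atg7-KO livers and 51.3, 62.9 and 91.9 CPM in S351A livers. It was called lower in Atg7-KO (log2 fold change -2.00, edgeR adjusted p 0.000637) and in S351A (-1.67, adjusted p 0.00392).

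Slc22a30 (-3.00 in Atg7-KO and -2.27 in S351A), Slc22a3 (-2.43 and -2.05) and Slc22a18 (-0.88 and -0.80) were called lower in both comparisons. The S351A call of Slc22a18 was lost under each of the other 3 scalings. Slc10a5 (-1.97) and Slc22a5, a carnitine transporter (-0.73), were called lower in Atg7-KO and not in S351A. Their differences between S351A and Atg7-KO were 1.42 (adjusted p 0.574) and 0.21 (adjusted p 0.940 in edgeR) and were not called. Slco3a1, a widely expressed member of the Slco family, held 21.5, 18.9 and 5.96 CPM in control livers and 122, 63.8 and 79.5 CPM in Atg7-KO livers. It was called higher in Atg7-KO (log2 fold change 2.64, edgeR adjusted p 0.00916) and in S351A (3.25, adjusted p 0.00567). Slc22a17 was also called higher in both (1.299 and 1.84). Slc22a12, the third called higher in both, had 1 count in all over the cont. livers and a mean of 5.88 CPM over the Atg7-KO livers. With total library size as the scaling, 4 related genes were called lower in Atg7-KO, and Slc22a18 and Slc22a5 lost their call. None of the called changes of related transporters turned direction under the other scalings.

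**Figure D5:**
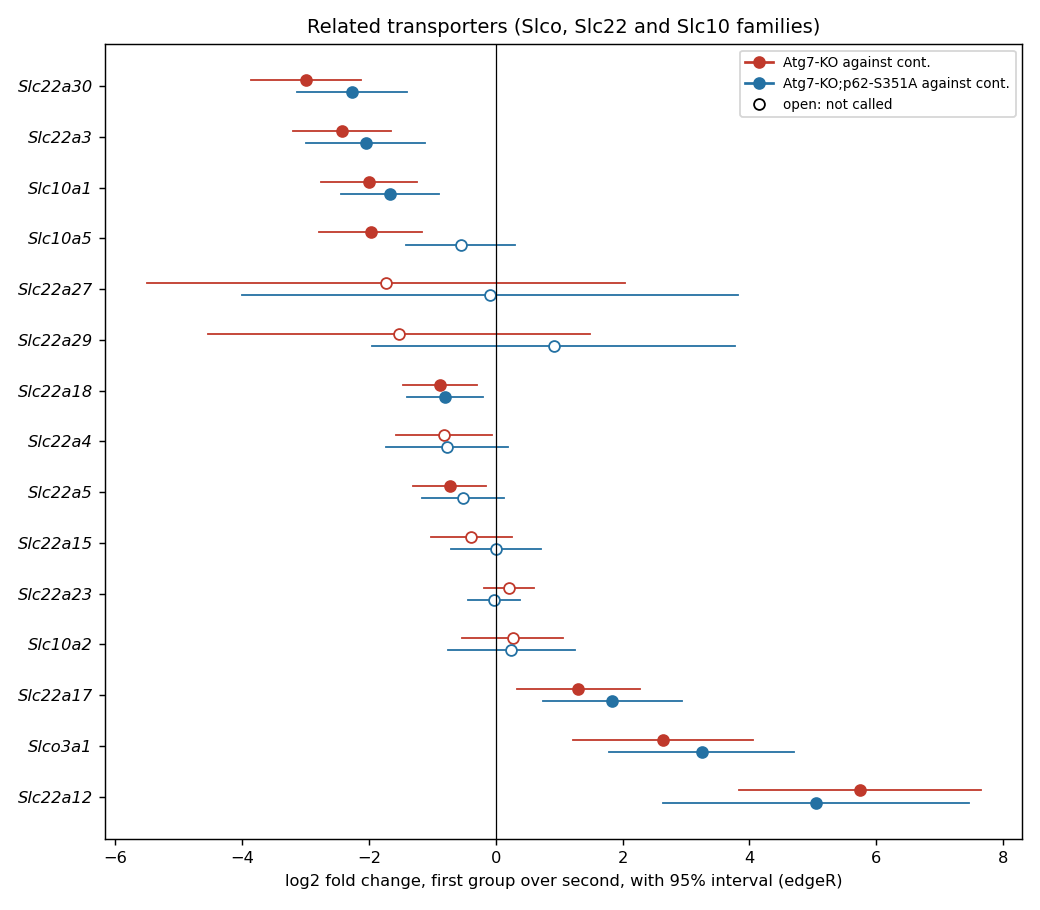
Log2 fold change against cont. of 15 related transporters, with 95% intervals from edgeR (filled points were called). Most genes lie below 0 in Atg7-KO, and Slc22a17, Slco3a1 and Slc22a12 lie above it in both comparisons.

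Regulators known to act on these transporters were listed as well, and of 18 genes 17 were tested. In Atg7-KO 9 were called lower and 0 higher, and in S351A 9 lower and 0 higher. Of all genes tested, 18.1% and 13.1% were called lower in these comparisons, and 20% and 15.7% higher. Unadjusted p-values were under 0.05 for 11 and 12 of the 17, beside 47.3% and 40.9% of all genes. Nr1i3, the xenobiotic receptor CAR, was called lower in Atg7-KO (log2 fold change -2.45, edgeR adjusted p 0.000231) and in S351A (-1.46, adjusted p 0.00933), as was Nr1h4, the bile acid receptor FXR (-1.61, adjusted p 0.000614, and -1.40, adjusted p 0.00283). On the growth hormone pathway, Ghr, the receptor, was at -2.64 (adjusted p 6.30e-06) and -2.21 (adjusted p 5.21e-05), Stat5b, the factor it activates, at -1.05 and -0.98, and Bcl6, which opposes Stat5b, at -1.86 and -2.41, all called lower in both. Bcl6 overlapped between cont. and Atg7-KO, with 35.7 CPM in the cont. female liver and 37.3 CPM in Atg7-KO replicate 3. Stat5a, the close relative of Stat5b, was not called, at -0.41 (adjusted p 0.133 in edgeR) and -0.13 (0.723). Foxa2, Nr0b2, Ppara and Rxra were the others called lower in both, and the S351A call of Ppara was lost under each of the other 3 scalings. Hnf4a, at 0.38 (adjusted p 0.244) and 0.29 (0.412), Nr1i2, the receptor PXR, at -0.63 (0.140) and -0.32 (0.498), and Nfe2l2, the gene of NRF2, at -0.77 (0.0719) and -0.85 (0.0726), were not called in either. Under total library size 4 of the 9 regulators called in Atg7-KO and 4 of the 9 called in S351A were called again, and none of the 9 turned direction in either comparison. Foxa2, Ppara, Rxra and Stat5b lost both calls there, Nr0b2 lost that in Atg7-KO and Nr1i3 that in S351A.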

How the data were processed

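The authors sequenced poly(A) RNA as 75-base single-end reads, mapped them to mm10 with STAR after Trim Galore, and deposited expected counts per gene from RSEM without scaling. Versions, annotation and strand setting are not given in the sources used here. Between 4.40% and 7.75% of values per library were not whole, and all were rounded. Groups rest on sample titles. For S351A replicates 2 and 3, the genotype entry names another position than the title. Per the study, the 3 libraries of each group are biological replicates. They were not duplicates (chi-square per gene 2.33 to 112).

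The rounded counts went into edgeR 4.0.16 under R 4.3.3 (filterByExpr, minimum count 10, total 15, TMM factors, quasi-likelihood F test on all 9 libraries, Benjamini-Hochberg adjustment over 11199 genes, called at adjusted p under 0.05 and fold above 1.5). Standard errors (SE) are those implied by the F test. Log2 CPM used a prior count of 2. Counting intervals are exact at 95%, and they and the floor of 3 counts cover counting error only. The script was tested on simulated data. Alternatives were limma-voom (limma 3.58.1), DESeq2 1.42.0, scaling by RLE, by library totals or by totals that leave out the 20 top genes, a minimum of 10 counts per library or no minimum, the 6 libraries alone, a replicate block, sex as a covariate, thinning, no fold threshold and leaving out each library. Within-sex fits were chosen after seeing the data.

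The 7 genes, the lists and the rules were chosen with earlier results of these data known. Named were all members, related transporters and regulators called against cont. with a mean of at least 10 CPM in 1 group, 8 preset genes in any case, and the 3 genes most like each member. Slc22a12 is named because it completes a count of 3. Some genes that the rule names are not reported here.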

Additional observations from a re-analysis of the deposited data

How the results depend on the processing

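The falls of Slco1b2, Slco2b1, Slc22a7 and Slc47a1 in Atg7-KO were called under every alternative that could test them, 20 for each gene except Slc22a7, with 19, the fits by sex not counted. Among the alternative values of single members, 12 lost a call, 6 gained one and 2 reversed, and the others kept their direction and side of the threshold. With at least 10 counts in every library, 3 members were called lower in Atg7-KO, since Slco1a1 and Slc22a7 are then not tested. Of all 6887 genes tested there, 1328 were called lower. The 1 member called higher in Atg7-KO became 0 with sex as a covariate, and 0 to 1 when a library was left out. Reversed were Slco1a4 in S351A against cont. without cont. replicate 2 (0.58, and -1.22 to 0.58 over the libraries left out) and Slc47a1 in S351A against Atg7-KO without S351A replicate 3 (-0.052, and -0.052 to 0.96 over the libraries left out). Neither was called in either fit, and the cause was not tested. In the fits by sex, arms of 1 liver are assumed to vary like the other groups, so their values are no test. There the log2 fold change of Slco1b2 in Atg7-KO was -1.99 within females and -2.13 within males. That of Slco2a1 was 1.31 and 0.32 in the same order. Within males, the change of Slco2a1 in S351A against cont. was -0.36, and in S351A against Atg7-KO, 1 liver against 1, Slco1a4 was at -0.029 and Slco2b1 at -0.065, all opposite to the fit of all libraries. Total library size moved the median of all genes from -0.032 to 0.51 in Atg7-KO and from -0.028 to 0.46 in S351A, and no member changed direction with it. Without division by length, the difference in share of Slco1b2 between Atg7-KO and cont. went from 2.40 to -2.19 percentage points.

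The replicate numbers of the titles were not taken as pairs, since the titles give a number and no pairing. Correlations of deviations between libraries of the same number were between -0.041 and 0.31, and 5 of 9 were above 0.1. A library was best matched by its own number in 13 of 18 cases, so libraries of the same number were somewhat alike. Replicate 1 was male and replicate 2 female in every group, and the part of sex in this likeness was not tested. With a replicate block, 5 members were again called lower and 1 higher in Atg7-KO, 4 lower and 0 higher in S351A, and 0 in S351A against Atg7-KO. Of all 11199 genes, that fit called 2031 lower and 2318 higher in Atg7-KO and 1576 and 1886 in S351A. In S351A against Atg7-KO it called 3 lower and 2 higher. Depth limits Slc22a7 and Slco1a1 in the livers with Cre, where single S351A libraries held as few as 3 counts and Atg7-KO replicate 3 held 1 count of each gene.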
